A study of Sus scrofa with 9 samples.

Results

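The forkhead (FOX) and SOX genes are a pair of families of transcription factors, and their exonic 5hmC was measured in adipose tissue-derived mesenchymal stem/stromal cells (MSCs) of swine. Members were chosen by gene symbol alone, as every symbol made of FOX, a letter and a number, or of SOX and a number. In all, 61 genes were found, 42 forkhead and 19 SOX. The table of Lean and Obese libraries held 59 of them among 18933 genes (41 forkhead and 18 SOX), and the table of treated and untreated Obese libraries held 60 among 18992 (41 forkhead and 19 SOX). FOXI2 was listed only in the first table, and FOXO6 and SOX14 only in the second.

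The MSCs came from subcutaneous abdominal fat of female domestic pigs that entered the study at 3 months of age and then ate either standard chow (Lean) or feed rich in fat and fructose (Obese) over 16 weeks. There were 3 libraries of Lean-MSCs (replicates 7, 8 and 9), 3 of untreated Obese-MSCs (replicates 1, 2 and 3), and 3 of Obese-MSCs that spent 48 h in medium with 50 µg/mL of vitamin-C (replicates 4, 5 and 6). All cells were primary MSCs expanded in culture, so the libraries describe cultured cells and not the tissue. The growth medium of the study itself contained some vitamin-C, so untreated here means without added vitamin-C. The sources used here do not pair treated cultures with untreated ones by animal. The untreated Obese libraries stood in both tables, which were normalized separately, and groups were therefore compared only within a table. The question of the first comparison was whether obesity goes with another 5hmC profile in MSCs, and that of the second whether vitamin-C, on which TET enzymes depend for their activity, changes the profile of Obese-MSCs.

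Forkhead proteins bind DNA through a winged-helix domain, and SOX proteins through an HMG box that bends the double helix. Both families set and keep cell identity, and several members act in mesenchymal cells. The FOXC and FOXF genes pattern mesenchyme and vessels, FOXO proteins are held out of the nucleus by insulin signalling through AKT, and SOX9 with SOX5 and SOX6 drives cartilage formation. 5hmC (5-hydroxymethylcytosine) arises when TET enzymes oxidize methylated cytosine. In gene bodies it is generally found at transcribed genes, but it is a DNA mark and not a measure of expression.

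Values are normalized counts of immunoprecipitated fragments over all exons of a gene, as the authors deposited them. Totals were between 494566 and 593846 per library, and the members together held between 0.288% and 0.354% of a library. How many reads stand behind a value was not given. Low values of Lean replicate 8 lay near whole numbers, as in FOXD2 (0.992), FOXQ1 (1.99), FOXF2 (2.98) and FOXA2 (3.97). A normalized count may thus stand for about a single fragment there, which was not tested. The error given is the SD between 3 libraries, which at low counts can be smaller than the uncertainty of counting few fragments. A mean of 3 normalized counts or less was treated as low. Genes met the study's criteria for high or low 5hmC when a two-sided test with equal variances gave p of 0.05 or less and the ratio of group means was at least 1.4 or at most 0.7. These calls were made here on the deposited values and are not the authors' own. Separately, limma was run on log2(value + 1) for genes whose mean was in the upper 80%, and p-values were adjusted by Benjamini-Hochberg. The MSC markers NT5E, THY1 and ENG carried 5hmC in every library, as did the adipocyte gene ADIPOQ, the leukocyte gene PTPRC and the endothelial gene PECAM1. CD14 was listed at 0 in all Lean libraries and read 0.650, 0.924 and 4.49 in the Obese ones, a mean under 3. The summed level of NT5E, THY1 and ENG lay between 94.8 and 123 in the Obese libraries and between 80.1 and 88.4 in the Lean ones, without overlap, although none of these 3 genes met the criteria. NT5E and THY1 overlapped, and ENG did not, with a lowest Obese value of 51.95 and a highest Lean value of 51.70. The summed level of the endothelial genes PECAM1, CDH5 and VWF lay between 162 and 195 after vitamin-C. Without it the sum lay between 201 and 219, again without overlap. PECAM1 and CDH5 had lower means after vitamin-C, but VWF had a higher one (38.8 beside 37.4), and PECAM1 and VWF overlapped. No other sum of marker genes was without overlap in either comparison. Among single genes, 11.8% in the first comparison and 5.91% in the second were without overlap. Of the macrophage genes CD68, ADGRE1 and CD163 only ADGRE1 met the criteria, as low after vitamin-C. The part of these marker genes in the results was not tested. These values are 5hmC and do not show which cells were present, and more cells with the mark cannot be told apart from more of the mark per cell.

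The members differed widely in how much 5hmC was counted over them, which cannot be read as a level per base because exon lengths were not used here. FOXP1, a regulator of B cells, heart and neurons, held the most counts, with 323, 335 and 300.3 in the Obese libraries, against 293, 333 and 320.4 in the Lean ones. SOX5, SOX6 and FOXF1 followed. At the other end, 10 of 59 members had no value above 3 in any library of the first table, and 8 of 60 in the second. Among them were FOXJ1, which drives the formation of motile cilia, and SOX2, a pluripotency and neural factor. SOX2 and FOXI2 were listed at 0 in all 3 Lean libraries, and FOXO6 and SOX14 in all 3 untreated libraries of the second table. SOX2 read 0, 0 and 1.12 in the Obese libraries and FOXI2 0.816, 0 and 0.0121, and no fold is given against a group at 0.

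All 61 members were placed by symbol in Sscrofa11.1, the build of the files. By annotated span from start to end, 37 members covered under 10 kb and 7 over 100 kb, with extremes of 885 bp for SOX14 and 1006514 bp for SOX5. There were 9 members on chromosome 6, 8 on chromosome 7 and 4 on the X chromosome. Forkhead genes sat close together in 3 places. FOXL1 (chr6:2540748-2544978), FOXC2 (chr6:2552141-2555041) and FOXF1 (chr6:2579348-2598122) lie together on chromosome 6, and FOXQ1 (chr7:664360-666401), FOXF2 (chr7:715001-719781) and FOXC1 (chr7:837088-840593) on chromosome 7. FOXD2 (chr6:164112510-164114191) and FOXE3 (chr6:164130638-164133218) form a pair elsewhere on chromosome 6. The spans of 9 members overlap another gene of the first table. FOXC2 and FOXF1 overlap MTHFSD, FOXP3 overlaps CCDC22, SOX15 overlaps MPDU1 and SOX18 overlaps TCEA2. These overlaps are of annotated spans, and shared exons were not looked for. Reads over any shared exon might not be assignable to either gene, so values of these members are uncertain.

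In Obese-MSCs versus Lean-MSCs, few forkhead or SOX genes met the study's criteria, and their share was close to that of all genes. FOXF2 and FOXK2 had high 5hmC and SOX7 had low 5hmC, which makes 3 of 59 members (5.08%) beside 4.5% of all 18933 genes. High 5hmC was called in 2 of 59 members, beside 2.07% of all genes, and low 5hmC in 1, beside 2.43%. Obese and Lean values were apart, without overlap, in 7 of 59 members (11.9%), beside 11.8% of all genes. The Obese values lay above in 2 of these (3.39%, beside 5.7% of all genes) and below in 5 (8.47%, beside 6.06%). With limma, 3 of the 36 members tested had an unadjusted p of 0.05 or less (8.33%, beside 6.81% of 15146 genes), namely FOXL1, SOX6 and FOXK2. None reached an adjusted p of 0.05 with limma and Benjamini-Hochberg adjustment, where the smallest adjusted p was 0.668 over members and 0.128 over all genes.

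Of the 40 members with a mean above 3 in at least 1 group, 20 had a higher mean in Obese-MSCs and 20 a lower one, and the median log2 ratio of group means was -0.02, beside 0.01 over 16416 genes chosen the same way. The families leaned apart in these counts. Forkhead genes had 17 higher and 11 lower means with a median log2 ratio of 0.19, whereas SOX genes had 3 higher and 9 lower with a median of -0.28. This difference between the families was not tested. FOXF2, FOXH1 and SOX8 were included only through their Obese mean, and FOXK1, FOXN4 and SOX10 only through their Lean mean. Where both group means were above 3, the ratio lay between 0.7 and 1.4 in 25 of 34 members (73.5%), beside 79.6% of all genes.

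**Figure D1:**
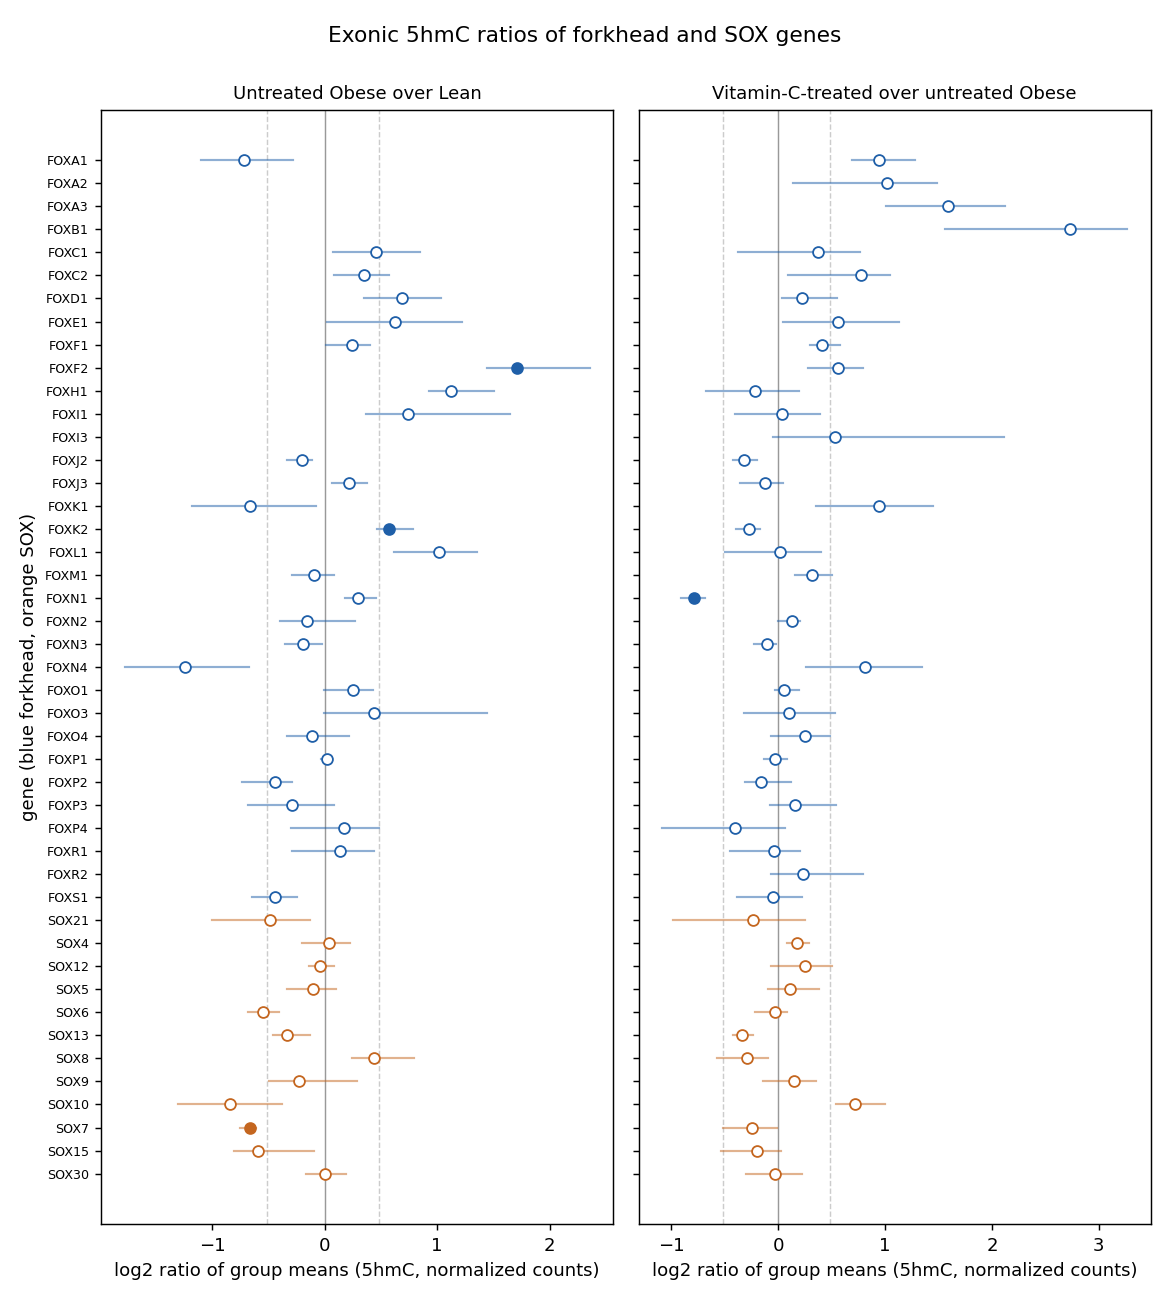
Log2 ratios of group means of 5hmC (horizontal axis) for each member with a mean above 3 normalized counts in at least 1 group, forkhead in blue and SOX in orange, for Obese over Lean (left) and vitamin-C-treated over untreated Obese (right). Filled circles met the study's criteria, bars span the ratios obtained when 1 library is dropped, and dashed lines mark ratios of 0.7 and 1.4. FOXF2, FOXK2 and SOX7 are filled on the left and FOXN1 alone on the right.

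FOXF2, a factor of mesenchyme and of pericytes in the brain, had the highest ratio of the forkhead genes above the low level. Its normalized counts were 5.40, 5.69 and 5.88 in Obese replicates 1, 2 and 3, and 1.17, 2.98 and 1.04 in Lean replicates 7, 8 and 9. Every Obese value was above every Lean value, with means of 5.66 ± 0.243 and 1.73 ± 1.09 (SD, n = 3 each) and a log2 ratio of 1.71. The Lean mean is a low one, FOXF2 was below the level tested with limma in this table, and the exact permutation test gave p = 0.1, the smallest that 3 against 3 libraries allow. FOXF2 met the criteria without each library in turn. Its paralog FOXF1, a Hedgehog-regulated factor of mesenchyme and vessels, read 153, 116 and 106 in the Obese libraries, against 69.4, 119 and 128 in the Lean ones. These values overlapped, and Lean replicate 7 alone lay far below the rest (log2 ratio 0.24, and 0.01 without that library).

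FOXK2, which with FOXK1 regulates glycolysis and autophagy, read 44.4, 43.6 and 37.8 in the Obese libraries, against 23.9, 24.8 and 35.9 in the Lean ones. The groups did not overlap, although Lean replicate 9 came close to Obese replicate 3. The means were 41.9 ± 3.60 and 28.2 ± 6.68 (SD, n = 3 each), with a log2 ratio of 0.57. The limma log2 fold change was 0.58 ± 0.26 (SE) with an adjusted p of 0.708 (limma, Benjamini-Hochberg). FOXK2 met the criteria with all libraries or without Lean replicate 9, but not when any of the other 5 libraries was left out. FOXK1 was at a low level in the Obese libraries, with 4.00, 0 and 4.58 beside 3.46, 4.97 and 5.13 in the Lean ones. Its groups overlapped.

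FOXL1, FOXC2 and FOXF1 are neighbours on chromosome 6. FOXL1, a factor of the gut mesenchyme, had the smallest limma p of all members. Its values were 99.8, 41.5 and 61.4 in the Obese libraries, against 24.0, 47.7 and 28.8 in the Lean ones, so Obese replicate 2 lay below Lean replicate 8 and the groups overlapped. The log2 ratio was 1.01, the limma log2 fold change 0.96 ± 0.31 (SE) and the adjusted p 0.668, while the exact permutation test gave p = 0.2. It did not meet the study's criteria. FOXC2, a factor of lymphatic vessels and of adipocytes, read 11.9, 6.59 and 8.30 in the Obese libraries, against 7.88, 8.94 and 4.14 in the Lean ones. MTHFSD, whose span covers FOXC2 and part of FOXF1 and which is named for that overlap, read 114, 110.0 and 94.4 in the Obese libraries, against 62.4, 95.3 and 72.9 in the Lean ones, with a log2 ratio of 0.47. In all 4 genes of this neighbourhood the Obese mean was higher, and in all 4 the groups overlapped. Since MTHFSD overlaps FOXC2 and FOXF1, the 4 may not be separate observations. The log2 ratio of FOXF1 was 0.01 without Lean replicate 7.

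**Figure D2:**
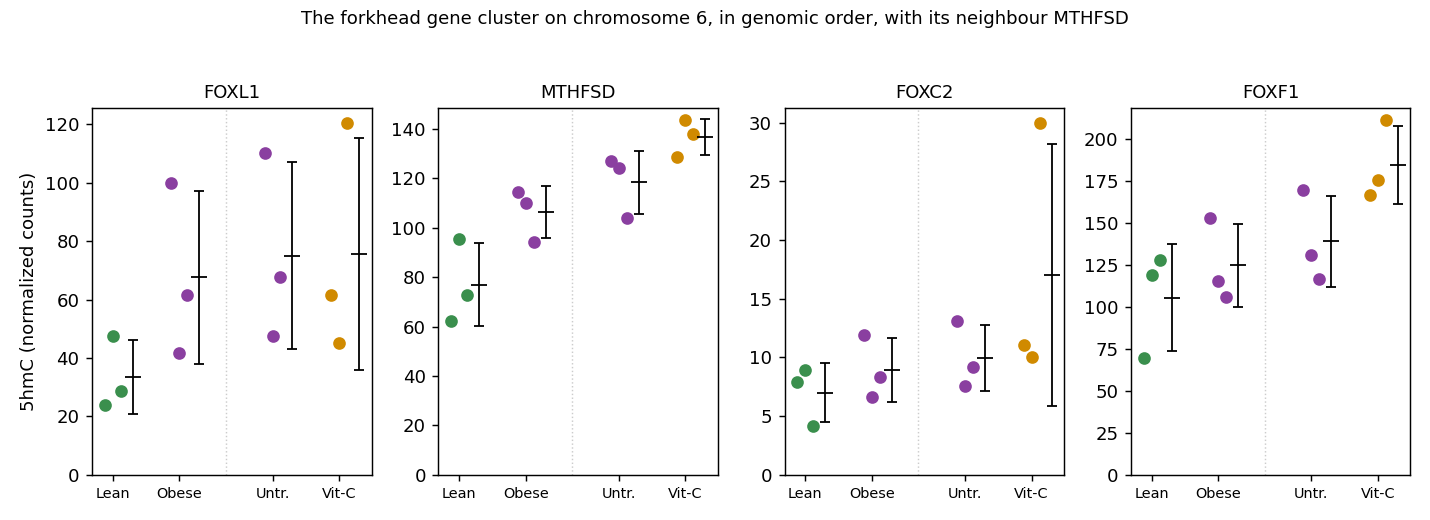
Normalized counts of 5hmC (vertical axes, each from 0) in each library over FOXL1, MTHFSD, FOXC2 and FOXF1, in genomic order, for Lean and Obese in the first table and untreated (Untr.) and vitamin-C-treated (Vit-C) Obese in the second. Points are libraries, and bars show the mean and SD of 3. FOXL1 ranged from 24.0 to 120.4 over the 4 columns, and its groups overlapped in both tables.

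On chromosome 7, FOXC1, a factor of eye, bone and vessel development, did not meet the criteria. It read 19.0, 40.0 and 22.6 in the Obese libraries, against 29.0, 19.9 and 10.3 in the Lean ones, and the groups overlapped (log2 ratio 0.46). The third gene there, FOXQ1, was low in both groups, with means of 1.28 ± 1.17 and 1.77 ± 1.66 (SD, n = 3 each).

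The FOXO genes, the forkhead factors under insulin and AKT control, did not meet the criteria. FOXO1, which restrains adipocyte differentiation and drives glucose production in liver, read 32.5, 41.8 and 33.1 in the Obese libraries, against 18.4, 34.8 and 36.9 in the Lean ones. FOXO3, a regulator of stress resistance and cell death, read 75.0, 26.3 and 46.0 against 19.7, 72.5 and 16.5. Its highest and lowest Obese values differed 2.84-fold and its Lean values 4.39-fold, so the log2 ratio of 0.44 was smaller than the spread within either group, and it was 1.44 without Lean replicate 8. FOXO4 on the X chromosome read 6.30, 6.66 and 2.54 against 4.58, 4.96 and 7.17. The FOXP genes did not meet the criteria either. FOXP1 had means of 319 ± 17.6 and 315 ± 20.3 (SD, n = 3 each; log2 ratio 0.02). FOXP3, the defining factor of regulatory T cells, had 22.0 ± 9.42 and 26.8 ± 10.5, and FOXP4 9.84 ± 5.17 and 8.75 ± 2.67.

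Other forkhead genes had larger ratios at lower counts. FOXA1, an opener of closed chromatin in endoderm and hormone-responsive tissue, had a mean of 3.19 ± 1.37 in Obese-MSCs beside 5.23 ± 2.95 in Lean-MSCs (SD, n = 3 each; log2 ratio -0.71). FOXD1, a factor of kidney stroma, had means of 6.74 ± 2.53 and 4.19 ± 1.96 with a log2 ratio of 0.69. FOXI1, a factor of proton-secreting cells in kidney and ear, had a log2 ratio of 0.75, and FOXE1, a thyroid factor, one of 0.63. Groups overlapped in all of these. FOXM1, which drives entry into mitosis, was close to equal, with 10.1 ± 2.63 in Obese-MSCs and 10.8 ± 1.89 in Lean-MSCs. FOXN1, the factor of thymic epithelium and hair, read 9.16, 11.4 and 12.8 against 7.98, 10.9 and 8.23. FOXJ2 had a log2 ratio of -0.20. FOXH1, a partner of SMAD proteins in Nodal signalling, had means of 6.10 ± 2.13 and 2.79 ± 1.14 with overlap (log2 ratio 1.13). FOXN4, which lay lower in every Obese library (2.37, 2.87 and 0.0692 beside 3.44, 4.97 and 4.11), and FOXB1, which did so at means under 3 in both groups, complete the forkhead genes without overlap. Both are named here because they fell in that count.

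Among SOX genes, SOX7 met the criteria for low 5hmC. SOX7 belongs with SOX17 and SOX18 to group F, whose members act in endothelial development. It read 6.16, 6.63 and 7.05 in the Obese libraries, against 11.3, 10.9 and 9.26 in the Lean ones. Both groups were tight and apart, with means of 6.61 ± 0.443 and 10.5 ± 1.08 (SD, n = 3 each) and a log2 ratio of -0.66, which stayed between -0.75 and -0.61 without each library in turn. SOX7 met the criteria in each of these 6 settings. The limma log2 fold change was -0.59 ± 0.36 (SE), with an adjusted p of 0.812 (limma, Benjamini-Hochberg), and the exact permutation p was 0.1, the smallest possible. SOX17 was low, with 3.25, 0.925 and 1.24 beside 3.35, 3.98 and 0.0149, and SOX18 had means under 3 in both groups.

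Group D holds SOX5 and SOX6, partners of SOX9 in cartilage, and SOX13. All 3 means were lower in Obese-MSCs. SOX6 read 129, 92.8 and 130.4 in the Obese libraries, against 139, 195 and 181 in the Lean ones, and the groups did not overlap. Its means were 118 ± 21.4 and 172 ± 28.8 (SD, n = 3 each), a ratio of 0.685. The ratio was within the fold limit of the study's criteria, but the p was not. Both limits were met without Lean replicate 7, the Lean library nearest to the Obese ones, and after quantile normalization. The limma log2 fold change of SOX6 was -0.55 ± 0.21 (SE) with an adjusted p of 0.679 (limma, Benjamini-Hochberg). SOX5 read 183, 237 and 128 against 187, 206 and 196, and here all Lean values lay inside the range of the Obese ones. SOX13 read 17.1, 15.1 and 19.9 against 18.2, 19.9 and 27.7, with overlap.

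SOX9 itself, the master factor of cartilage, read 17.1, 18.0 and 14.3 in the Obese libraries, against 11.6, 30.8 and 15.4 in the Lean ones. Lean replicate 8 lay above all Obese values, replicate 7 below them and replicate 9 among them, and the log2 ratio was -0.23. SOX10, a neural crest and Schwann cell factor, had means of 2.86 ± 0.619 and 5.13 ± 3.44, and SOX8 3.78 ± 0.891 and 2.78 ± 1.04 (SD, n = 3 each), so the means of group E did not all lie on the same side. SOX4, a group C factor of progenitor cells, was close to equal with 40.3 ± 5.78 and 39.1 ± 12.7, while its relative SOX11 was low in both groups. SOX15 read 9.06, 14.3 and 14.0 against 12.7, 13.9 and 29.7, where Lean replicate 9 alone stood high (log2 ratio -0.59, and -0.09 without it). SOX21, a neural factor, read 13.7, 3.70 and 8.28 against 16.7, 9.92 and 9.27. SOX3, named because its groups did not overlap, was lower in every Obese library at means under 3 in both groups. Of the remaining members with both means above 3, which were FOXJ3, FOXN2, FOXN3, FOXP2, FOXR1, FOXS1, SOX12 and SOX30, the log2 ratios lay between -0.44 (FOXS1) and 0.22 (FOXJ3), and 19 of the 59 members had both means at or below 3. Leaving out a library added other members to the calls: FOXH1 high without Obese replicate 1, FOXD3 high without Obese replicate 2, FOXP2 low without Obese replicate 3, and SOX10 and SOX6 low without Lean replicate 7. Between 2 and 4 of the 59 members were called with a library left out, beside 4.03% to 5.04% of all genes.

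**Figure D3:**
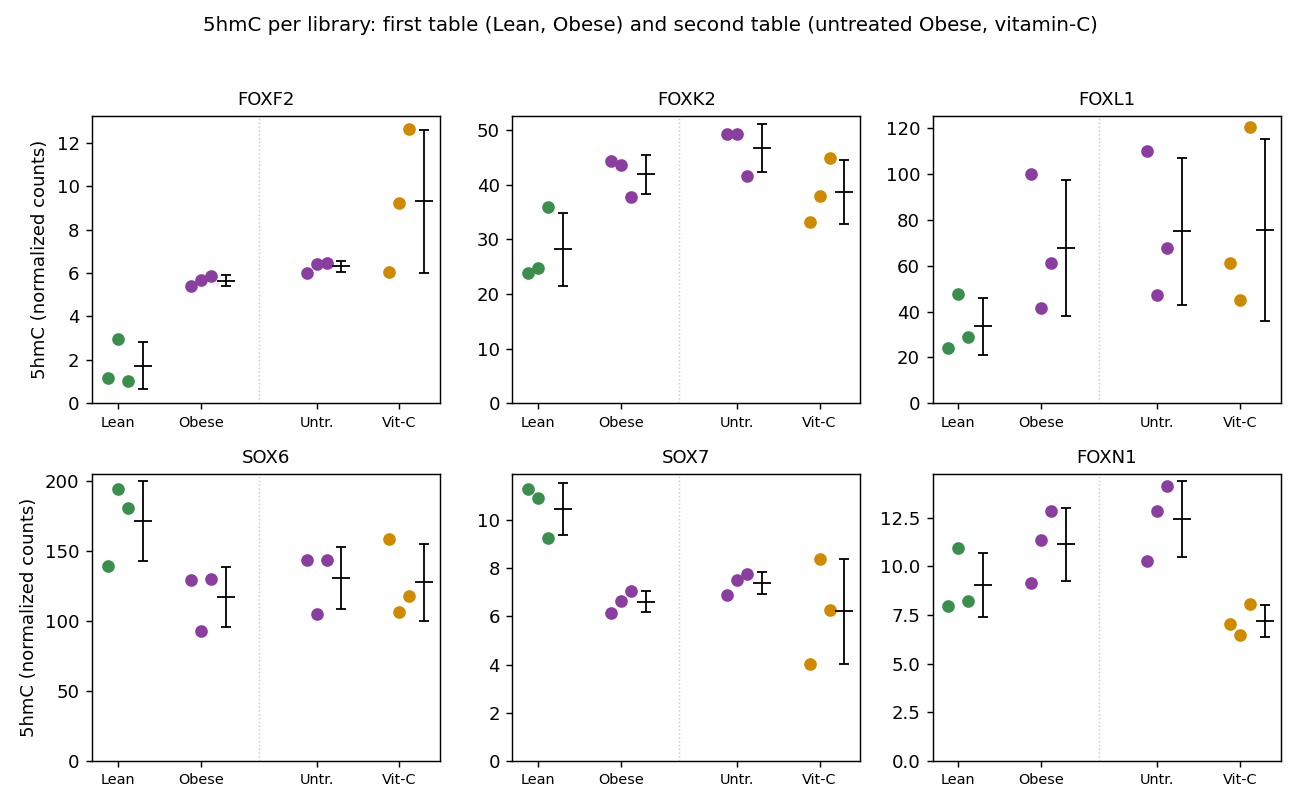
Normalized counts of 5hmC (vertical axes, each from 0) in each library for the 4 members that met the study's criteria (FOXF2, FOXK2, SOX7 and FOXN1) and for FOXL1 and SOX6, with Lean and Obese from the first table and untreated (Untr.) and vitamin-C-treated (Vit-C) Obese from the second. Points are libraries, and bars show the mean and SD of 3. Lean and Obese are apart in FOXF2, FOXK2, SOX6 and SOX7 and overlap in FOXL1, and treated and untreated are apart in FOXN1.

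Between Obese-MSCs with and without vitamin-C, only FOXN1 met the study's criteria, with low 5hmC, which is 1 of 60 members (1.67%) beside 1.92% of all 18992 genes. No member was called high, beside 1.11% of all genes, and 0.806% of all genes were called low. The libraries did not overlap in 5 of 60 members (8.33%), beside 5.91% of all genes, 2 with the treated values above (3.24% of all genes) and 3 with them below (2.67%). None of the 38 members tested with limma had an unadjusted p of 0.05 or less, beside 0.974% of 15194 genes, and the smallest adjusted p was 0.999976 (limma, Benjamini-Hochberg) over members and over all genes.

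Of the 45 members with a mean above 3 in at least 1 group, 27 had a higher mean after vitamin-C and 18 a lower one, with a median log2 ratio of 0.11 beside 0.01 over 16743 genes. Forkhead genes had 22 higher and 11 lower means (median 0.16), and SOX genes 5 higher and 7 lower (median -0.03). FOXA2, FOXA3, FOXB1, FOXI3, FOXN4 and FOXR2 were included only through their treated mean and so could only count as higher. No member was included only through its untreated mean, so nothing is read from the lean of these counts and medians. Where both means were above 3, the ratio lay between 0.7 and 1.4 in 32 of 39 members (82.1%), beside 87.8% of all genes. The untreated libraries are also those compared with Lean, so ratios of the same gene in both comparisons are not independent. No member met the criteria or was without overlap in both.

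FOXN1 read 7.04, 6.45 and 8.08 in the treated libraries and 10.3, 12.9 and 14.1 in the untreated ones. Every treated value lay below every untreated value, with means of 7.19 ± 0.824 and 12.4 ± 1.96 (SD, n = 3 each) and a log2 ratio of -0.79, between -0.91 and -0.69 without each library in turn. It met the criteria in each of those 6 settings. The limma log2 fold change was -0.71 ± 0.36 (SE), with an unadjusted p of 0.0674 and an adjusted p of 0.999976 (limma, Benjamini-Hochberg), and the exact permutation p was 0.1, the smallest possible. The other FOXN genes did not meet the criteria. FOXN2 and FOXN3 had log2 ratios of 0.12 and -0.10, and FOXN4 one of 0.81 at low counts.

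FOXA1 was higher in every treated library, with 5.03, 6.46 and 9.03 beside 3.44, 2.19 and 5.02 in the untreated libraries, but the nearest values were 5.03 and 5.02. Its log2 ratio was 0.95 and the criteria were not met, although they were after quantile normalization. FOXA2 and FOXA3, its relatives in liver and gut, also had higher means, at log2 ratios of 1.02 and 1.59, against untreated means under 3. FOXA2 rested on treated replicate 5 (2.02, 6.58 and 1.71 in the treated libraries), and its log2 ratio was 0.13 without it. FOXO6 was the other member above without overlap, but only because a treated value of 0.000903 exceeds 0, the untreated value. Of the members below without overlap, SOX13 read 14.1, 14.8 and 17.0 in the treated and 19.0, 17.2 and 21.8 in the untreated libraries (log2 ratio -0.34), and SOX1 was at means under 3.

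In the neighbourhood of FOXL1 on chromosome 6, FOXF1 read 167, 176 and 211 in the treated and 169.6, 131 and 117 in the untreated libraries. Only untreated replicate 1 reached the treated values, and the log2 ratio was 0.41 with an unadjusted limma p of 0.0736. FOXF1 met the criteria without that library. The overlapping gene MTHFSD read 129, 144 and 138 with treatment against 127, 124 and 104 without, with every treated value above every untreated one and a log2 ratio of 0.21. FOXC2 read 11.08, 10.1 and 29.9 with treatment against 13.1, 7.57 and 9.16 without. Treated replicate 6 alone stood high, and the log2 ratio of 0.78 was 0.09 when it was left out. FOXL1 had means of 75.7 ± 39.6 and 75.1 ± 32.1 (SD, n = 3 each), a log2 ratio of 0.01. On chromosome 7, FOXF2 read 6.04, 9.25 and 12.6 with treatment against 6.02, 6.44 and 6.48 without. FOXC1 read 29.2, 70.8 and 17.6 against 21.4, 44.8 and 24.9. Both had higher means after treatment with overlapping groups.

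The FOXO genes with counts above the low level had log2 ratios of 0.06 (FOXO1), 0.10 (FOXO3) and 0.25 (FOXO4), none of them past the criteria. FOXP1 and FOXP3 had log2 ratios of -0.03 and 0.16, and FOXP4 one of -0.40 with treated values from 2.02 to 14.6. FOXK2 had means of 38.7 ± 5.86 with treatment and 46.8 ± 4.41 without (SD, n = 3 each), with overlap, and FOXK1 had 6.03 ± 3.73 and 3.14 ± 2.69. FOXM1 had a log2 ratio of 0.32 and FOXJ2 one of -0.32. FOXD1, FOXE1 and FOXI1 had log2 ratios of 0.23, 0.56 and 0.04. Groups overlapped in all of the genes of this paragraph.

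The SOX genes gave ratios on either side of 1. SOX6 had means of 128 ± 27.6 with vitamin-C and 131 ± 22.1 without, and SOX7 6.22 ± 2.18 and 7.38 ± 0.452 (SD, n = 3 each). SOX5 had a log2 ratio of 0.11, SOX9 one of 0.15 and SOX4 one of 0.17. SOX10 read 3.02, 6.51 and 6.30 in the treated and 2.55, 3.22 and 3.83 in the untreated libraries, and treated replicate 4 was the value that overlapped. SOX8, SOX15 and SOX21 had log2 ratios of -0.30, -0.20 and -0.24. SOX2, SOX11, SOX14 and SOX17 stayed at means under 3 in both groups. Among members above 0 in both group means, FOXB1 had the highest log2 ratio, 2.73, but against a low untreated mean, with 3.02, 0.841 and 9.17 in the treated and 0.863, 1.07 and 0.041 in the untreated libraries. The remaining members with both means above 3 were FOXH1, FOXJ3, FOXN2, FOXN3, FOXP2, FOXR1, FOXS1, SOX12 and SOX30, and their log2 ratios lay between -0.22 (FOXH1) and 0.25 (SOX12). Both means were at or below 3 in 15 of the 60 members.

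Which members were called after vitamin-C depended on the libraries included. Without treated replicate 4, 5 of 60 members met the criteria, which were FOXN1 low and FOXA3, FOXF2, FOXO6 and SOX10 high, beside 2.81% of all genes. Without treated replicate 5, 4 did, which were FOXN1 low and FOXD2, SOX11 and SOX14 high, beside 2.15% of all genes. FOXJ1 joined FOXN1 without untreated replicate 3, beside 2.09% of all genes called. FOXN1 was the one member called in every such setting, and of those that joined it, FOXD2, FOXJ1, FOXO6, SOX11 and SOX14 were at low counts.

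Replicate libraries differed more over some members than over others. For each gene the SD of log2(value + 1) between libraries of a group was ranked among genes with 0.5 to 2 times its mean. FOXO3 stood at percentile 99.6 in the first table and 98.8 in the second. In the second table its untreated values were 82.6, 30.2 and 50.7 and its treated values 87.5, 21.0 and 66.3, so the highest and lowest libraries differed 2.73-fold and 4.17-fold. FOXC1 ranked at percentiles 92.3 and 97.0, and FOXL1 at 93.7 and 95.2. At the other end, 2 of the members that met the criteria had unusually close replicates, SOX7 at percentile 0.623 in the first table, the lowest of the members above the low level, and FOXN1 at 3.53 in the second. FOXF2 and FOXK2 stood at 17.5 and 24.96 in the first table. The criteria rest on the spread within groups and so favour genes with close replicates. Low ranks of called members follow in part from the call. FOXP1 ranked at percentile 4.47 in the first table, where its 6 values lay between 293 and 335, SOX12 at 2.25 in the first table and SOX13 at 2.74 in the second.

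**Figure D4:**
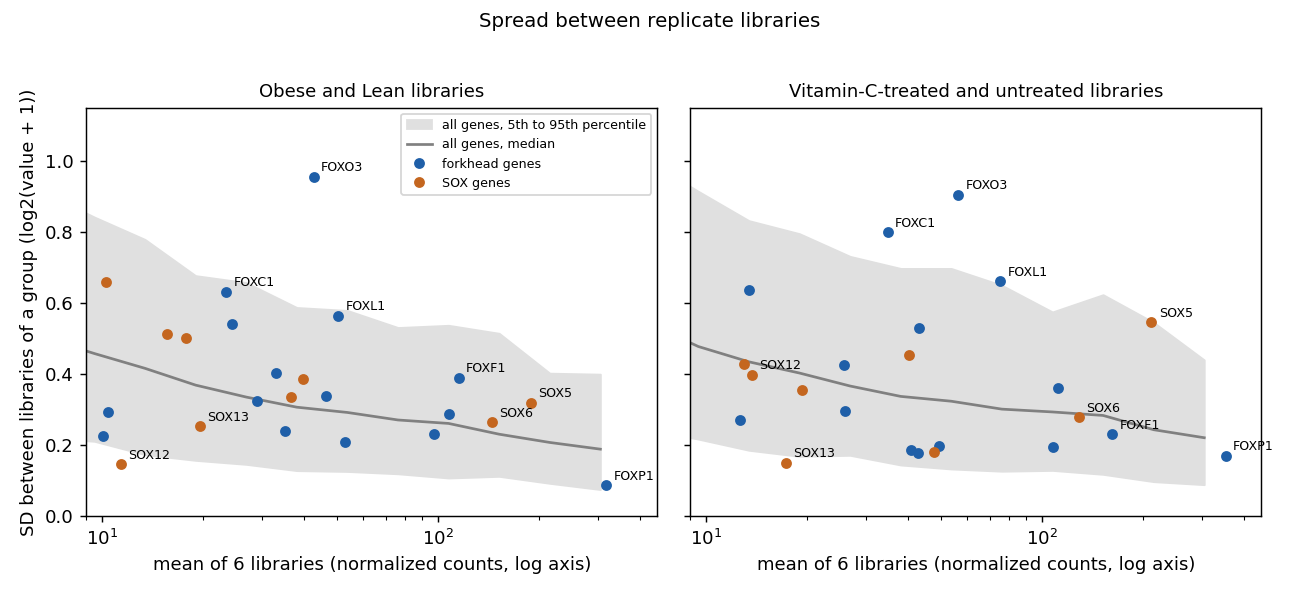
SD of log2(value + 1) between libraries of a group, averaged as variance over both groups (vertical axis), against the mean of the 6 libraries in normalized counts (log axis), for members with a mean above 10 in the first table (left) and the second (right). The line and band give the median and the 5th to 95th percentile of all genes in steps of mean. FOXO3 lies above the band in both panels, and FOXP1 is the rightmost point.

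Members were also described by annotated span. The split at 10 kb was made after seeing the values, and a span is not an exon length. After vitamin-C, 17 of the 22 short members above the low level in at least 1 group had a higher mean (77.3%, beside 52.6% of 4256 short genes). FOXA2, FOXA3, FOXB1, FOXI3 and FOXR2 are among these 17 and passed that level only through the treated group. They could therefore only count as higher, and nothing is read from this share or from the medians below. Their median log2 ratio was 0.24, beside 0.03 over all short genes. The 23 longer members had a median of -0.03, beside 0.0002 over all longer genes. Treated replicate 6 lay 0.59 above the gene mean in the median of short members on the log2(value + 1) scale, and 0.15 above it over all short genes. Without that library the median of short members was 0.12, beside -0.06 over all short genes, and 14 of 22 were higher. Treated replicate 6 also held the highest value of the 6 libraries for 14 of the 45 members above the low level, and for 20.6% of all genes above it, the largest share of the 6 libraries. It held the lowest value for 7 of these members and for 21.4% of all such genes, which was the largest share of all genes as well. In the first table the 17 short members had a median log2 ratio of 0.35, beside 0.02 over 4088 short genes. Of these members 10 were higher (58.8%, beside 51.7% of all short genes). The 23 longer ones had a median of -0.10, beside 0.002 over all longer genes. The short members FOXF2, FOXH1 and SOX8 passed the low level only through their Obese mean and could only count as higher. The longer members FOXK1, FOXN4 and SOX10 passed it only through their Lean mean and could only count as lower. Nothing is therefore read from the difference between short and longer members. Lean replicate 9 lay 0.45 below the gene mean in the median of its short members (median deviation -0.45, beside 0.02 over all short genes). The median of short members was between 0.09 and 0.47 without each library in turn, the lowest being without Obese replicate 1.

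**Figure D5:**
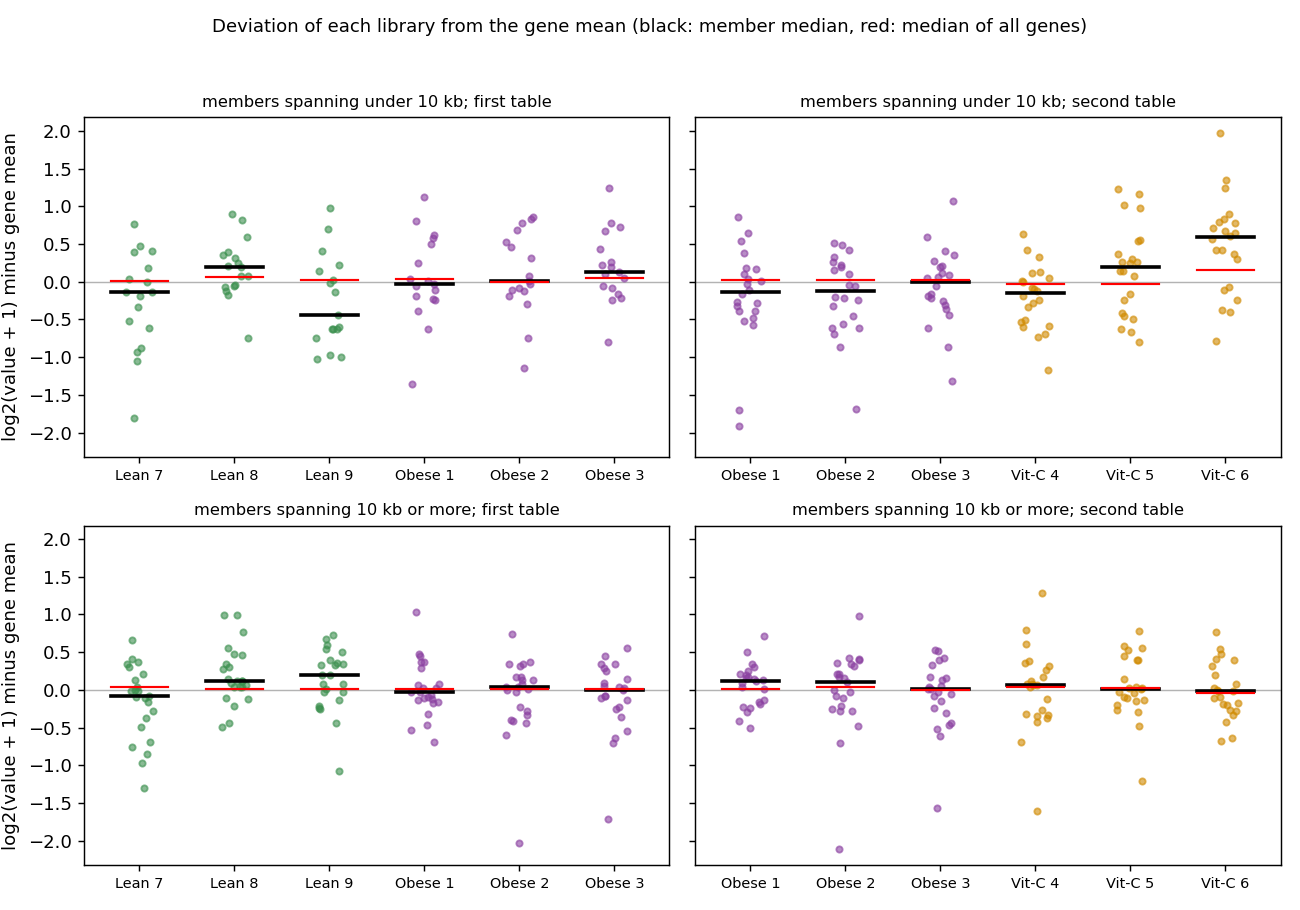
Deviation of each library from the gene mean on the log2(value + 1) scale (vertical axis) for members spanning under 10 kb (top) and 10 kb or more (bottom), in the first table (left) and the second (right), where labels give group and replicate. Points are members with a mean above 3 in at least 1 group, black bars their median, and red bars the median of all genes of that span class. Vitamin-C replicate 6 (black bar at 0.59) stands highest in the top right panel.

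Lists of genes that work with these factors were counted in the same way. Of 41 genes of insulin and FOXO signalling, 2 (4.88%) had high 5hmC in Obese-MSCs and none low, beside 4.5% of all genes called in either direction. SKP2, a ubiquitin ligase subunit that targets FOXO1 for degradation, read 18.8, 15.1 and 15.4 in the Obese libraries, against 12.3, 6.94 and 7.21 in the Lean ones. FBXO32, a muscle ubiquitin ligase gene that FOXO proteins activate, read 28.7, 31.3 and 30.6 against 18.1, 14.9 and 19.5 (log2 ratios 0.90 and 0.79). Their groups did not overlap, and their limma adjusted p were 0.679 and 0.674 with Benjamini-Hochberg adjustment. After vitamin-C, 2 of 41 were called, beside 1.92% of all genes. YWHAZ, a 14-3-3 protein of the kind that binds phosphorylated FOXO, was high at 41.2, 32.3 and 40.3 beside 23.2, 26.8 and 28.4. FBXO32 was low at 18.1, 29.8 and 16.0 beside 31.9, 35.4 and 33.7, in a comparison that shares the untreated libraries with the first. The median log2 ratio of the list was -0.02 in the first comparison and 0.04 in the second.

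None of 27 genes of the SOX9 cartilage programme and none of 23 other HMG-box genes met the criteria in either comparison. Their median log2 ratios were 0.01 and -0.04 for Obese over Lean, and -0.09 and -0.12 for treated over untreated. Of 30 partner factors of SOX and forkhead proteins, 4 (13.3%) met them in Obese-MSCs, beside 4.5% of all genes. This list was chosen with earlier results known, and nothing is read from its share. The Hedgehog effectors went apart, with GLI2 high (17.9, 15.1 and 21.0 in the Obese and 9.17, 12.9 and 13.3 in the Lean libraries) and GLI1 low (29.3, 35.1 and 37.5 against 54.3, 64.5 and 52.4). TWIST1, a mesenchymal factor, was high at 6.34, 4.73 and 3.64 beside 1.19, 1.98 and 3.07, and PAX3, a factor of muscle precursors and neural crest, was low at 6.84, 9.50 and 9.37 beside 11.5, 16.9 and 16.4. The smallest adjusted p of the list was that of GLI1 (0.668, limma with Benjamini-Hochberg adjustment). The median of the list was -0.02. After vitamin-C, 1 of 30 met the criteria, POU3F3, with low 5hmC at means under 3 in both groups, and the median was -0.01.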

How the data were processed

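hMeDIP-seq libraries of 9 swine MSC cultures were used. The authors aligned paired reads to susScr 11.1 with Bowtie 2 (v2.3.3.1), removed duplicates with Picard (v1.67), counted exonic reads per gene with HTSeq (v0.9.1) and normalized with edgeR (v3.28.1). The deposited signal values are these normalized counts, which are fractional, so no count test was run. Values that were numerical residue around 0 (645 in the second table) were set to 0. The strand setting of the counting was not given in the sources used here.

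The study's criteria were applied to the deposited values of all genes. limma 3.58.1 (R 4.3.3) used log2(value + 1), a trend on the mean and Benjamini-Hochberg adjustment. The pseudocount makes limma fold changes of low genes smaller, and log2 ratios of group means carry none. Single genes were compared with a two-sided exact permutation test (20 arrangements). On simulated data, the criteria recovered 96% of 200 genes changed 3-fold in the first comparison and 94% in the second, and limma 93.5% and 94%. The criteria, which carry no adjustment, also called 617 and 642 unchanged genes, and limma 3 and 5. The changed genes were drawn only from those above the median level, and all genes were simulated with the same dispersion between libraries. Recovery of low genes, of smaller changes or of genes with a wider spread was not tested, so these shares do not describe most members. Tests and plots were made with scipy 1.17.1 and matplotlib 3.10.9, and tables with pandas 2.3.3 and numpy 2.4.6, in Python 3.11.15.

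Members named are those that met the criteria, the 5 highest and 5 lowest log2 ratios of each comparison with both means above 3, the 4 with most counts, those listed at 0 in a whole group, and a list of 25 well-studied genes. Other genes are named where the text says so or where they make up a count. Values of 1 member are not reported here. The members and all lists were chosen with earlier results of these data known. Alternatives were other thresholds, tests, pseudocounts and filters, size factors, quantile normalization and each library left out in turn.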

Additional observations from a re-analysis of the deposited data

How the results depend on the processing

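For Obese over Lean, 3 members met the study's criteria (5.08%, beside 4.5% of all genes), and 1 did with fold limits of 2 and 0.5. Leaving out each library gave between 2 and 4, beside 4.03% to 5.04% of all genes. The count at an unadjusted limma p of 0.05 was 3 (8.33%, beside 6.81% of the genes tested). It lay between 1 and 4 without each library in turn, with 1 without Obese replicate 1. For treated over untreated, the count was 1 (1.67%, beside 1.92% of all genes). It became 0 with a p threshold of 0.01 and 0 with fold limits of 2 and 0.5. With the limma p in place of the criteria's own it was also 0. With quantile normalization it was 2, beside 1.99% of all genes. Leaving out each library gave between 1 and 5, beside 2.04% to 2.81% of all genes. There were 5 without treated replicate 4, 4 without treated replicate 5, and 2 without untreated replicate 1 or 3. The limma count of 0 became 1 with no filter on low values, and it lay between 0 and 1 without each library in turn, with 1 without untreated replicate 1. The cause was not tested. For the other alternatives the share over all genes is not given here, and nothing is read from those counts. No member passed an adjusted p of 0.05 with limma under any alternative run. The median log2 ratio over members lay between -0.09 and 0.06 in the first comparison and between 0.05 and 0.14 in the second. The sign of the log2 ratio turned under some alternative in 10 of 30 named members in the first comparison and in 14 of 31 in the second, none of them a member that met the criteria. No paired analysis was run because no label ties a treated culture to an untreated one. The authors describe Obese-MSCs cultured for another passage with or without vitamin-C, so treated and untreated cultures may share animals. Which of them came from the same animal is not given in the sources used here. The tests treat all cultures as separate, and what a shared animal does to them was not tested.

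The values are relative within a library, so a change of 5hmC shared by all genes would not be visible. Members at 3 normalized counts or less rest on few fragments, and their ratios were not read as differences. With 3 libraries a group the exact permutation test cannot go below 0.1.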
